A study of Mus musculus with 11 samples.

Results

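The cells described here are newborn excitatory neurons of the embryonic mouse dorsal cortex, defined by transcripts of Neurod1. They were found in 2 droplet single-cell RNA libraries (10x 3′ kit v3.1), 1 from a wild-type (WT) embryo and 1 from a Syncrip conditional knockout (cKO) embryo of the same litter, both at E14.5. A barcode was kept when it held at least 1000 detected genes and at most 10% mitochondrial unique molecular identifiers (UMIs, the count of distinct captured transcripts), and it counted as a newborn neuron when it had at least 3 Neurod1 UMIs, no Neurog2 UMI, at most 1 UMI of Top2a and Mki67 together, at most 1 of Tfap2d, and at most 1 of Dlx1, Dlx2, Dlx5 and Dlx6os1 together. In all, 1452 of 16335 kept cells met the rule, 628 in WT and 824 in cKO. The levels of these genes chose the cells, so those levels are given as a description only.

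The cKO embryo carried floxed Syncrip alleles, with loxP sites around exons 2 to 4, and Emx1-Cre, which acts in progenitors of the dorsal telencephalon and their descendants but not in cells that come from the ganglionic eminences. The WT embryo is labelled only by that term. The strain was C57BL/6. The same genotypes were also compared in neural progenitor cell (NPC) cultures, 3 WT and 3 cKO, which had been grown from the walls of the E14.5 lateral ventricles in medium with EGF and bFGF. Such medium favours dividing progenitors.

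Neurod1 is a basic helix-loop-helix (bHLH) transcription factor of the glutamatergic lineage. In the developing cortex, apical progenitors with Pax6 give rise to intermediate progenitors with Eomes and Neurog2, and Neurod1 then appears in cells that leave the cycle in the subventricular zone, before the later neuronal genes Neurod2, Neurod6, Stmn2 and Mapt reach their full levels. Such cells pass through a multipolar stage, in which Unc5d is typical, and then migrate along radial fibres to the cortical plate. Syncrip is an RNA-binding protein of the hnRNP family that acts in mRNA splicing, localisation and translation.

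bHLH factors of the Neurod family bind E-boxes, of which the 6-letter form CAGATG, which reads CATCTG on the other strand, is the one usually given for Neurod1. The 12 genes that led these neurons over all other cells were therefore read for these letters on both strands, from 250 bases before to 50 bases after each start in the RefSeq promoter table of GRCm38.p6 (mm10). Of the 12 genes, 10 had a window in the table, and 4 of them (40%) held the letters, against 5196 of 27025 genes (19.2%) in the whole table. In windows, since a gene can have several, these were 4 of 14 (28.6%) against 5635 of 32851 (17.2%). The 4 matches belong to leading genes of these neurons. Each is shown in 30 bases with the E-box letters in capitals, read 5′ to 3′ on the gene's own strand.
Slc17a6, chr7:51624420-51624449, plus strand: ctctgagtggtaCAGATGgccctgtgggtg
Sema3c, chr5:17574604-17574633, plus strand: cggcggcccgtgCAGATGcggcgggccacg
2600014E21Rik, chr2:75275367-75275396, plus strand: tggggtcaccttCATCTGgttccaggatgc
Ndst3, chr3:123672441-123672470, minus strand: ttcctgtgagtcCAGATGtgtgatccagat
The letters lay 205 bases before the start in Slc17a6, 200 before it in Sema3c, 55 before it in 2600014E21Rik and 19 after it in Ndst3. A match is a description of these windows and no binding was measured.

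The libraries held 100172392 UMIs in 8289 barcodes for WT and 111313526 UMIs in 9659 barcodes for cKO, and 22 barcode sequences occurred in both (1 WT and 2 cKO newborn neurons). The newborn neurons had a median of 11927 UMIs and 3995 genes in WT, and of 11438 UMIs and 3904.5 genes in cKO. Their median mitochondrial share was 1.73% in each library. In sum they held 8093726 UMIs in WT and 10462942 in cKO, which set the precision of every level below. Levels are counts per 1000000 of the UMIs summed over a population (CPM), and all intervals are exact 95% intervals that cover counting error only, not the differences between embryos. Because there was 1 embryo per genotype, no test between genotypes was made in these cells.

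The embryos also differed in sex. In the newborn neurons Xist, the RNA that coats the inactive X chromosome, had 0 UMIs in WT and 9478 in cKO, while the Y-linked genes Uty and Eif2s3y had 645 and 606 UMIs in WT against 1 and 0 in cKO. Sex, embryo and genotype cannot be told apart in any comparison of the libraries.

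The Neurod1 minimum removed most cells, and Neurog2 was the largest loss after it. Of 7554 kept WT cells, 1536 had 3 or more Neurod1 UMIs, and of those 716 had no Neurog2 UMI, or 46.6% (44.1 to 49.1). In cKO these were 1908 of 8781 cells and 1021 of 1908, or 53.5% (51.2 to 55.8). The limits on Top2a and Mki67, on Tfap2d and on the Dlx genes then left 691, 641 and 628 cells in WT and 975, 859 and 824 in cKO.

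Many cells sat close to the limits. With exactly 3 Neurod1 UMIs, 168 WT and 203 cKO cells lay just inside, and with 2 UMIs, 282 and 299 cells that met every other condition lay just outside. Cells that failed only by having 1 Neurog2 UMI numbered 294 in WT and 288 in cKO. The other limits had fewer cells near them. With 1 UMI of Top2a and Mki67, 51 WT and 102 cKO cells were inside, and with 2 UMIs, 7 and 13 were outside. For Tfap2d the inside counts were 41 and 47 and the outside counts 23 and 31, and for the Dlx genes 40 and 100 against 1 and 13. Within the members, Neurod1 had a median of 5 UMIs per cell in each library and reached 28 in WT and 26 in cKO.

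The label was checked against markers that the rule did not use. After each cell was thinned to 5000 UMIs, Neurod6, a bHLH gene of postmitotic cortical neurons, was in 99.7% of WT and 99.4% of cKO newborn neurons, against 26.4% and 21.1% of microglia and endothelial cells, where it is background. Neurod2 was in 93.2% and 96.8%, against 30.2% and 14.0%, and the neuronal tubulin Tubb3 in 99.4% and 100%, against 35.8% and 33.3%. Slc17a6, which encodes the vesicular glutamate transporter VGLUT2, was in 58.1% and 52.5%, against 7.55% and 0% (0 of 57 cells, with an exact upper limit of 6.27%). Unthinned, the newborn neuron shares were 100% and 100% for Neurod6 and 78.8% and 73.2% for Slc17a6. Neurog1 had 0 UMIs in WT and 2 in cKO. Gad2, a GABA-synthesis enzyme of interneurons, stood at 3.95 CPM in WT and 4.11 in cKO, against 739 and 712 CPM in Dlx-positive cells (at least 3 UMIs of the 4 Dlx genes together, no Neurod6 UMI and at most 1 UMI of Top2a and Mki67). None of these markers goes against the label of excitatory neurons, but they were not particular to the newborn neurons. In thinned WT intermediate progenitors, defined below, Neurod6 was in 83.9%, Tubb3 in 87.1%, Neurod2 in 69.0% and Slc17a6 in 48.4% of cells. Insm1, a gene of the intermediate progenitor list, was in 61.7% of WT newborn neurons and in 60.6% of those progenitors.

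**Figure D1:**
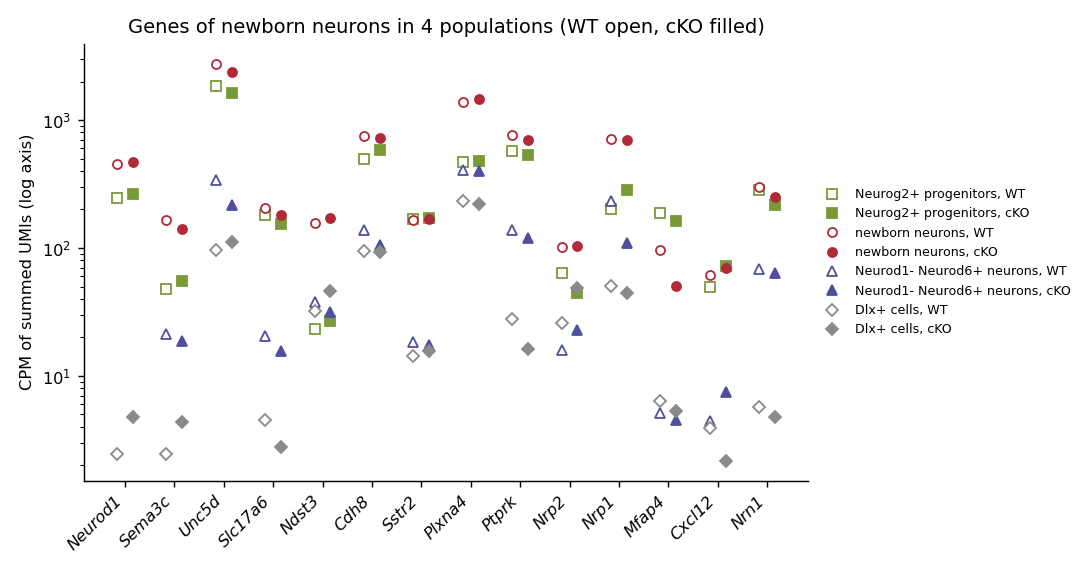
Levels of genes of newborn neurons in 4 cell populations, as CPM of summed UMIs on a log axis, with WT open and cKO filled. Neurod1 stood at 456 and 470 CPM in newborn neurons (circles) and is 0 by rule in the Neurod1-negative, Neurod6-positive neurons, so no point is drawn there, and Mfap4 lay higher in the Neurog2-positive progenitors than in newborn neurons in both libraries.

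Cells of 3 other populations of the same libraries were set beside the newborn neurons. Intermediate progenitors (at least 3 Eomes and 2 Neurog2 UMIs) numbered 758 in WT and 780 in cKO. Later neurons with at least 3 Neurod6 UMIs and no Neurod1 or Neurog2 UMI numbered 1648 and 1570. Both kept the limits on Top2a and Mki67 and on the Dlx genes, and the later neurons also the limit on Tfap2d. Dlx-positive cells, as defined above without cells that held a Neurod6 UMI or mitotic transcripts, descend from progenitors outside the reach of Emx1-Cre and numbered 602 and 823. Their median depths were 12374 and 11534.5 UMIs for the intermediate progenitors, 14371 and 13899 for the later neurons, and 8005 and 7558 for the Dlx-positive cells.

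Among genes with at least 100 CPM in the newborn neurons of each library, the 12 with the highest ratio over all other cells were Neurod1, Sema3c, Unc5d, Slc17a6, Ndst3, Cdh8, Sstr2, 2600014E21Rik, Plxna4, Ptprk, Nrp2 and Nrp1. They include the secreted guidance cue Sema3c, the class 3 semaphorin co-receptors Nrp1 and Nrp2, the plexin Plxna4 and the netrin receptor Unc5d. Cdh8 is a cadherin, Ptprk a receptor tyrosine phosphatase, Ndst3 an enzyme that sulfates heparan sulfate, and Sstr2 a somatostatin receptor. Neurod1 is part of the rule, and the other genes were picked by this ratio in the same cells, so the ratios are not tests.

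Unc5d stood at 2751 CPM in the WT and 2370 CPM in the cKO newborn neurons, against 1832 and 1631 in intermediate progenitors, 341 and 217 in later neurons and 97.0 and 112 in Dlx-positive cells. It was thus highest in the newborn neurons of each library among these populations. Sema3c had a sharper peak, at 167 CPM in WT and 140 in cKO, with 48.1 and 55.3 in intermediate progenitors and 21.3 and 18.9 in later neurons. Ndst3 was at 157 and 171 CPM in newborn neurons, at 23.2 and 26.9 in intermediate progenitors and at 38.0 and 31.6 in later neurons.

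Other leading genes and markers were shared with the intermediate progenitors. Sstr2 was at 166 CPM in WT and 168 in cKO newborn neurons and at 169 and 172 in intermediate progenitors, with 18.4 and 17.5 in later neurons. Slc17a6 was at 207 and 180 CPM in newborn neurons and at 181 and 154 in intermediate progenitors. Nrn1, which encodes the neurite-promoting protein neuritin, stood at 299 and 252 CPM in newborn neurons and at 284 and 215 in intermediate progenitors.

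Of the markers given for these cells, 2 were weaker guides. Mfap4, a microfibril-associated glycoprotein, was at 96.2 CPM in WT and 50.5 in cKO newborn neurons, below the 187 and 163 CPM of the intermediate progenitors. Cxcl12, the chemokine ligand of Cxcr4, was at 61.7 and 69.8 CPM, against 49.9 and 72.1 CPM in intermediate progenitors. Neither exceeded 100 CPM in newborn neurons.

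Stmn2 and Mapt, which rise in maturing neurons, lay below their levels in later neurons. Stmn2, a microtubule regulator of growing axons, stood at 415 and 400 CPM in newborn neurons, 142 and 91.5 in intermediate progenitors and 1495 and 1306 in later neurons. Mapt, which encodes tau, gave 173 and 207 CPM, then 78.6 and 63.0 in intermediate progenitors and 604 and 590 in later neurons. In each library both genes rank the 3 populations in the same order, from progenitor to newborn to later neuron, with intervals that do not overlap.

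Because depth differed between populations, shares are given after the same thinning, which kept 616 WT and 816 cKO newborn neurons and left out 12 and 8. Sema3c had a UMI in 45.9% of thinned WT and 43.3% of thinned cKO newborn neurons, against 14.0% and 14.6% of intermediate progenitors, 7.8% and 7.4% of later neurons and 1.9% and 1.8% of microglia and endothelial cells, which should lack it. Unthinned, it was detected in 411 of 628 and 500 of 824 newborn neurons. Stmn2 was in 44.5% and 47.4% of newborn neurons after thinning, and in 41.5% and 24.6% of the microglia and endothelial cells. In WT intermediate progenitors the Stmn2 share was lower, at 17.3% (130 of 752). The part of free RNA in these shares was not tested.

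Unc5d also had a background, with 17.0% and 15.8% of thinned microglia and endothelial cells, but it stood at 95.9% (WT) and 89.1% (cKO) in newborn neurons and at 80.1% and 71.2% in intermediate progenitors. Eomes, the T-box factor of intermediate progenitors, was in 28.6% of WT newborn neurons (25.03 to 32.3) and in 18.5% of those of cKO (15.9 to 21.3), against 1.9% and 3.5% of microglia and endothelial cells. The unthinned shares were 37.1% and 25.7%.

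**Figure D2:**
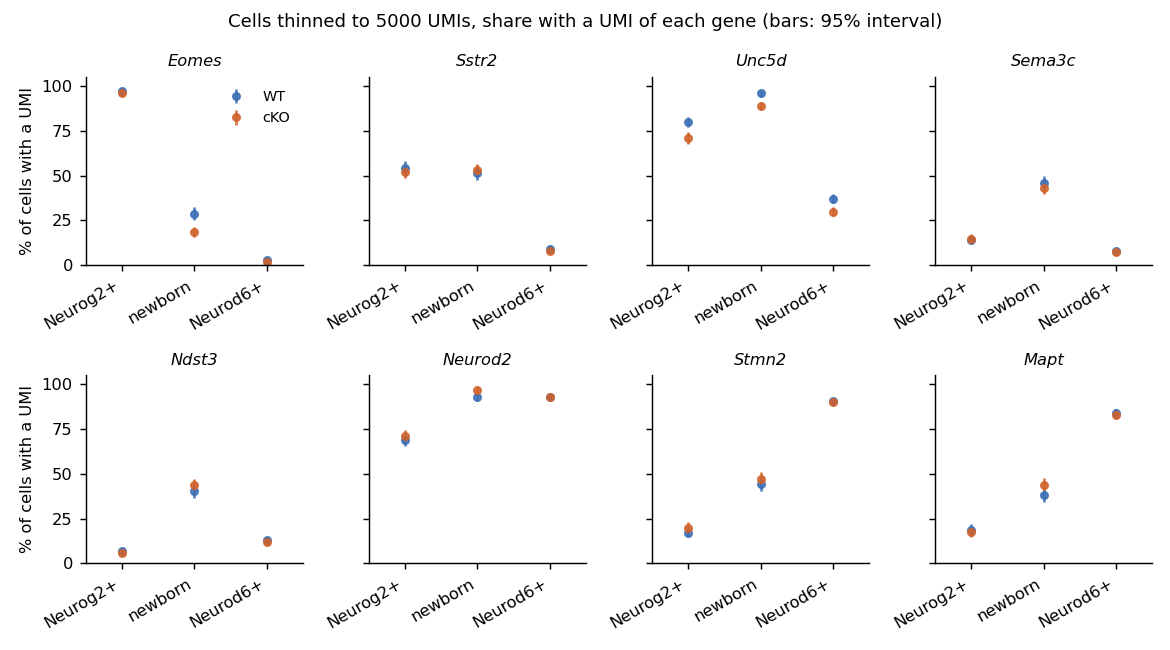
Share of cells with a UMI of each gene, in percent, after each cell was thinned to 5000 UMIs, for Neurog2-positive intermediate progenitors, newborn neurons and Neurod6-positive later neurons (blue, WT; orange, cKO; bars, exact 95% binomial interval). Eomes is at 97.5% and 96.1% in progenitors and at 28.6% and 18.5% in newborn neurons, Sema3c and Ndst3 are highest in newborn neurons, and Stmn2 and Mapt are highest in later neurons.

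The members were not uniform, and those with an Eomes UMI differed from those without one. In WT, the 233 newborn neurons with an Eomes UMI had 568 CPM of Neurod1, 168 of Mfap4 and 3770 of Unc5d, against 392, 55.2 and 2167 CPM in the 395 without one. The order was the opposite for later genes. Stmn2 was at 139 CPM with and 573 CPM without Eomes, and Mapt at 77.0 and 228.

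UMIs of genes that later mark different cortical layers occurred in the same barcodes. Pou3f2 (Brn2), a POU factor of upper layer neurons, was found with Bcl11b (Ctip2), a factor of subcerebral neurons, in 51.9% (47.9 to 56.0) of the thinned WT newborn neurons and in 38.2% (34.9 to 41.7) of those of cKO. Cux2, an upper layer homeodomain factor, was found with Fezf2, a factor of layer 5 neurons, in 8.60% (6.51 to 11.1) and 12.99% (10.8 to 15.5), so the libraries differed in opposite directions in these pairs. Taken alone, Bcl11b was in 73.9% and 80.3% of newborn neurons but also in 22.6% and 17.5% of microglia and endothelial cells, and Pou3f2 in 70.0% and 49.6% against 7.55% and 3.51%. Cux2 was in 52.4% and 53.7% against 9.43% and 12.3%, and Fezf2 in 25.3% and 29.2% against 7.55% and 7.02%. No background was computed for the pairs, so the share that free RNA adds to them is not known. The share of each pair that follows from its single genes was not computed either. Joint expression beyond the single shares is therefore not read from these pairs.

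Newborn neurons made up 8.31% (7.70 to 8.96) of kept WT cells and 9.38% (8.78 to 10.0) of kept cKO cells. Over cells with at most 1 Dlx UMI, a denominator that leaves out ventral cells, the shares were 9.79% (9.08 to 10.5) and 11.6% (10.8 to 12.3). The order rested on the Neurog2 condition. Without it the shares were 17.2% (1303 cells) in WT and 17.0% (1497 cells) in cKO, so the cKO library was no longer higher. The Dlx-positive cells, with their limits on Neurod6 and on mitotic transcripts, were 7.97% of WT and 9.37% of cKO cells.

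Syncrip itself was at 291 CPM (2358 UMIs) in WT and 334 CPM (3496 UMIs) in cKO newborn neurons, a log2 ratio of cKO over WT of 0.20 (0.12 to 0.27). The ratio was 0.08 in intermediate progenitors, 0.20 in later neurons and -0.30 in Dlx-positive cells. The kit captures 3′ ends, and a deletion of exons 2 to 4 need not remove them, so this level does not check the deletion or the label of the cKO library.

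Among 8570 genes with at least 200 UMIs over both libraries, the median log2 ratio of cKO over WT in newborn neurons was -0.02, and the central 90% of genes lay between -0.31 and 0.33. A gene was counted as higher or lower when the ratio reached 0.5 in size, which held for 182 genes (2.12%) higher and 117 (1.37%) lower in cKO, or 3.49% in either direction. These shares are the background for the gene groups that follow. The counts were 83 higher and 80 lower after thinning, and 90 and 82 among cells with at least 5 Neurod1 UMIs, so the excess of higher genes depended on these choices. UMIs of a gene cluster within cells, so the intervals of genes carried by few cells are too narrow.

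The 10 genes highest in cKO by this ratio were Tafa1, Lhfpl3, Kctd8, Hs3st4, Mthfd1l, Galntl6, Kitl, Lingo2, Dpp10 and Adamts3. Mthfd1l, a mitochondrial enzyme of folate metabolism, was at 38.4 CPM in WT and 126 in cKO, a ratio of 1.71 (1.53 to 1.89). After thinning it was in 10.4% of WT and 21.3% of cKO newborn neurons (16.9% and 30.2% unthinned). The thinned shares were below the 22.6% (12 of 53) and 29.8% (17 of 57) of microglia and endothelial cells. Whether the UMIs there are free RNA or expression was not tested, so no share of expressing newborn neurons is read. The Mthfd1l ratio was 0.67, 1.33 and 0.97 in intermediate progenitors, later neurons and Dlx-positive cells. It was thus higher in cKO in all 4 populations, Dlx-positive cells included.

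Adamts3, a secreted metalloprotease that cleaves procollagen and reelin, was at 25.1 CPM in WT and 64.2 in cKO, a ratio of 1.36 (1.13 to 1.59). After thinning it was in 8.44% of WT and 20.2% of cKO newborn neurons (18.8% and 31.8% unthinned), against 11.3% (6 of 53) and 8.77% (5 of 57) of microglia and endothelial cells, so the WT share is no higher than background. In the Dlx-positive cells its ratio was 0.10. Tafa1, which encodes a small secreted protein of the brain, had 40 UMIs in 6 WT cells against 948 in 59 cKO cells, a ratio of 4.20 (3.74 to 4.69). After thinning it was in 0.325% of WT and 5.27% of cKO newborn neurons. Its ratio was 4.91 in later neurons. In Dlx-positive cells it had 1 UMI in WT and 32 in cKO (4.60, 2.02 to 9.95), and after thinning it was in 2.16% (1.21 to 3.53) of the cKO Dlx-positive cells and in 1 of 57 cKO microglia and endothelial cells (1.75%, 0.0444 to 9.39), so free RNA cannot be told apart from expression there.

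Several of the other high genes were carried by few cells. In cKO, 82.1% of the Hs3st4 UMIs were in 10 cells and 110 of 178 Galntl6 UMIs were in 1 cell. Leaving out the 10 cells with most UMIs of the gene in each library, a check added after these values were seen, gave 1.05 for Hs3st4 (2.00 with them), 1.58 for Galntl6 (1.65), 1.37 for Lingo2 (1.49), 1.82 for Kitl (1.55), 2.38 for Dpp10 (1.49), 3.19 for Kctd8 (2.10) and 2.72 for Lhfpl3 (2.22). It left no Tafa1 UMI in WT. In Kitl, Dpp10, Kctd8 and Lhfpl3 the step took a larger part of the WT than of the cKO UMIs. For Kctd8 these parts were 76.7% and 50.2%, and its interval was then 2.26 to 4.29. The higher ratios of these genes after the step are therefore not read as support. Among cells with at least 5 Neurod1 UMIs, Lingo2 was at 0.40, inside the limit, and Dpp10 at 0.83.

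The 10 lowest genes in cKO were Synpr, Ltbp1, Cdkn1c, Reln, Ezr, Acads, Onecut2, Zfp385b, Cacna2d3 and Lhx9. Cdkn1c (p57Kip2), an imprinted inhibitor of cyclin-dependent kinases that acts at cell cycle exit, was at 130 CPM in WT and 52.8 in cKO, a ratio of -1.30 (-1.45 to -1.15). The ratio was -1.34 in intermediate progenitors and -1.01 in later neurons. In the Dlx-positive cells of the same embryos it was 0.09, with 126 and 134 CPM. Its UMIs were spread over 365 WT and 319 cKO newborn neurons, and leaving out the 10 highest cells gave -1.33. After thinning it was in 38.3% of WT and 19.1% of cKO newborn neurons (58.1% and 38.7% unthinned). In WT microglia and endothelial cells it was in 24.5% (13 of 53, or 53.9% unthinned). Whether the UMIs there are free RNA or expression was not tested, so no share of expressing newborn neurons is read.

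Ezr, which links membrane proteins to actin, was at 102 CPM in WT and 43.0 in cKO, a ratio of -1.25 (-1.42 to -1.08), with -0.33 in intermediate progenitors, -0.80 in later neurons and -0.56 in Dlx-positive cells. Ltbp1, a binding protein of latent TGF-beta, was at 121 and 46.8 CPM, a ratio of -1.36 (-1.52 to -1.21), with -0.40 in Dlx-positive cells at 4.72 and 3.57 CPM. Ezr was therefore lower in cKO in the Dlx-positive cells as well. The 95% interval for Ltbp1 there spans 0, so no direction is read from it.

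The ratio of Reln, the secreted glycoprotein of Cajal-Retzius cells, rested on 1 cell. In WT, 279 of its 482 UMIs were in a single newborn neuron, and without the 10 highest cells the ratio changed from -1.27 to -0.09 (-0.41 to 0.24). The same step moved Zfp385b from -1.14 to -0.37 and Cacna2d3 from -1.10 to -0.60. It left Acads at -1.28, Onecut2 at -1.17, Lhx9 at -1.04, Ltbp1 at -1.44 and Synpr at -1.35.

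**Figure D3:**
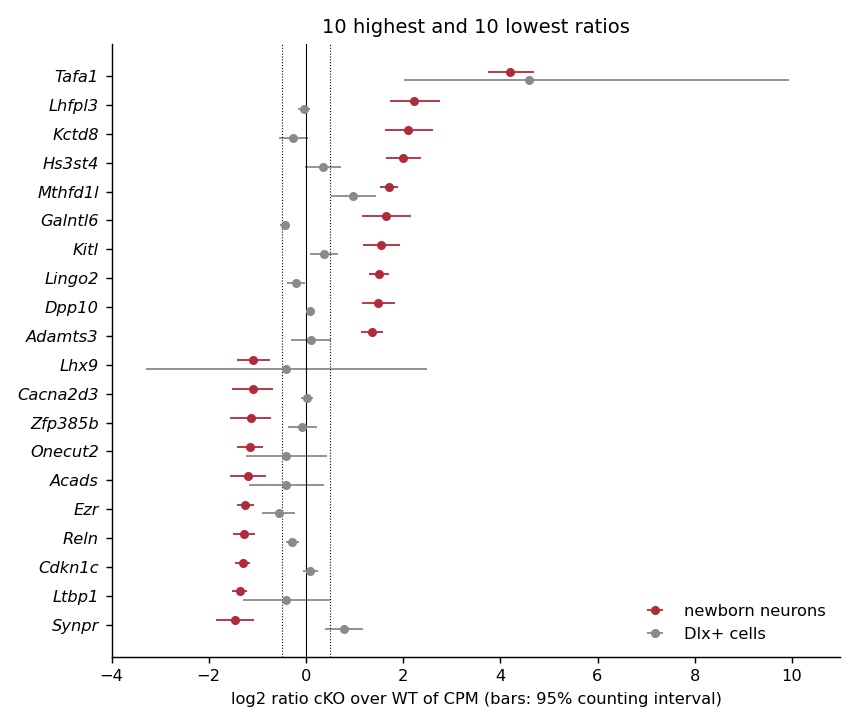
Log2 ratio of cKO over WT for the 10 genes with the highest and the 10 with the lowest ratio in newborn neurons (red), beside the Dlx-positive cells of the same libraries (grey), with exact 95% intervals for counting error and dotted lines at the limits of -0.5 and 0.5. Cdkn1c lies at -1.30 in newborn neurons and 0.09 in Dlx-positive cells, Tafa1 lies far to the right in both, on 1 WT UMI in the Dlx-positive cells, and the value of Reln rests on 1 WT cell.

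Genes of the step before the newborn neuron were examined next. Of the 9 genes of the intermediate progenitor list, 7 passed the minimum of 200 UMIs, and 1 of them, Eomes, was past the limit. Eomes was at 129 CPM in WT and 67.4 in cKO newborn neurons, a ratio of -0.94 (-1.08 to -0.80), while in intermediate progenitors, where Eomes chose the cells, it was 820 and 866 CPM. The list's median was -0.08, against -0.02 over all genes. Insm1, a zinc finger factor of progenitor delamination, was at 215 and 204 CPM, and Sstr2 at 166 and 168.

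Of 10 apical progenitor genes, 5 were tested and Pax6 was lower in cKO, at 42.0 and 28.9 CPM (-0.54, -0.77 to -0.31), with a list median of -0.17. With at least 5 Neurod1 UMIs its ratio was -0.43, inside the limit. Among the 6 markers of newborn neurons, Mfap4 was lower (-0.93, -1.09 to -0.77) and the median was -0.21. Neurod1, used by the rule, had a ratio of 0.04, Unc5d -0.22, Slc17a6 -0.20, Nrn1 -0.24 and Cxcl12 0.18.

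All 12 genes of the postmitotic neuron list were tested, with a median of 0.08. Slc17a7, which encodes the transporter VGLUT1 of more mature excitatory synapses, was past the limit (0.58, 0.36 to 0.80), on 257 UMIs in WT and 497 in cKO, but was at 0.32 after thinning. Neurod2 had a ratio of 0.17, Mapt 0.27, Tubb3 0.05, Neurod6 -0.05 and Stmn2 -0.05. Of 10 tested genes of glutamate transport and receptors, 3 were higher (Slc17a7, Grin2b and Grm5) and none lower, with a median of 0.07. Grin2b, an NMDA receptor subunit, had 537 UMIs in 152 WT cells and 1246 in 250 cKO cells (0.84, 0.70 to 0.99). Its ratio in Dlx-positive cells was -0.01.

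The share of Eomes-positive cells differed between the libraries, 37.1% (33.3 to 41.0) in WT and 25.7% (22.8 to 28.9) in cKO, so the main ratios were also taken within each class. Cdkn1c was at -1.27 in cells without and -1.22 in cells with an Eomes UMI. Pou3f2 was at -0.83 and -0.61, Zbtb20 at -0.71 and -0.67, Ezr at -1.22 and -0.89, and Mfap4 at -0.89 and -0.57. Sox5 was at 0.45 and 0.44. Each of these 6 genes kept its direction in both classes. Nedd4 was at -0.41, inside the limit, in cells without an Eomes UMI and at -0.67 in cells with one. The cells without one were 62.9% of the WT and 74.3% of the cKO newborn neurons. The split by Neurod1 level was alike in the libraries, with 45.7% and 45.1% of cells at 3 or 4 UMIs and 12.90% and 12.99% at 10 or more.

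Layer genes lay on both sides of 0. Of 11 genes of superficial layers, 10 were tested, with 7 below 0, a median of -0.08 and 1 past the limit. This was Pou3f2, at 316 CPM in WT and 182 in cKO (-0.80, -0.89 to -0.71), with a UMI in 86.9% and 67.5% of cells, against 22.4% and 15.8% of microglia and endothelial cells (70.0% and 49.6% against 7.55% and 3.51% after thinning). Its ratio was -0.32 in intermediate progenitors, -1.42 in later neurons and -0.30 in Dlx-positive cells. Cux1 and Cux2, homeodomain factors of upper layers, had ratios of -0.19 and -0.11. The superficial list summed to 2744 CPM in WT and 2437 in cKO newborn neurons, and to 1854 and 1536 CPM in all other cells, where it was thus lower in cKO as well.

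Of 11 genes of deep layers, 9 were tested, with a median of 0.10 and 1 past the limit in each direction, Hs3st4 higher (with the concentration in few cells given above) and Zfpm2 lower. Sox5, a factor of subplate and layer 6 neurons, was at 1125 CPM in WT and 1585 in cKO (0.49, 0.46 to 0.53), just inside the limit, and its ratio was 0.15 in intermediate progenitors, 0.25 in later neurons and 0.50 in Dlx-positive cells. Bcl11b was at 345 and 438 CPM (0.34, 0.28 to 0.41) and Tbr1, a factor of layer 6 neurons, at 107 and 131 CPM (0.29, 0.17 to 0.42). Foxp2 lay the other way at -0.27. The deep list summed to 2267 CPM in WT and 2789 in cKO newborn neurons, and to 3210 and 3324 CPM in all other cells. Sox5 carried most of the difference in newborn neurons.

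**Figure D4:**
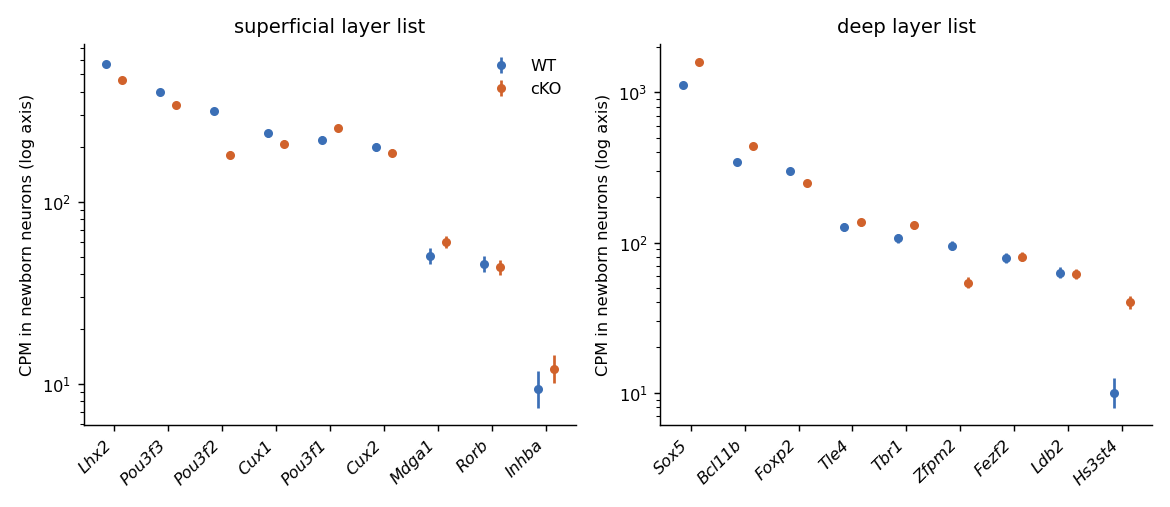
CPM of the tested genes of superficial (left, 1 gene not shown) and deep (right) cortical layers in newborn neurons, on log axes with different ranges, for WT (blue) and cKO (orange), with exact 95% Poisson intervals that are smaller than the points for abundant genes. Pou3f2 lies at 316 and 182 CPM, and Sox5, Bcl11b and Tbr1 lie higher in cKO, while Zfpm2 and Foxp2 lie lower.

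Temporal genes are genes whose levels in progenitors shift as the cortex moves from one neuron type to the next. The list used here holds 7 genes that the study discusses in these samples, together with Nfia and Syncrip, so its count is not independent evidence. Top2a, which the study also discusses, was capped by the rule and is not in the list. Of the 9 genes 7 were tested and 2 were lower in cKO, with a median of 0.00. Zbtb20, a zinc finger repressor of late progenitors, was at 450 CPM in WT and 257 in cKO (-0.81, -0.88 to -0.74), against -0.36 in intermediate progenitors, -0.37 in later neurons and -0.17 in Dlx-positive cells. Nedd4, a ubiquitin ligase, was at 224 and 143 CPM (-0.65, -0.75 to -0.55), against -0.32, -0.39 and 0.14. Nfib was at 0.00 and Nfix at -0.33.

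A further set was named by the study for progenitor cells of these libraries. Of 8 genes 7 were tested, with Ntrk2 higher, Ncam2 and Hmgn2 lower and a median of -0.19. Hmgn2, a nucleosome-binding protein, had a ratio of -0.59 (-0.67 to -0.52) in newborn neurons and -0.74 in intermediate progenitors. Ncam2 rested on few cells, with -0.07 once the 10 highest were left out.

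Genes of migration and guidance, which include several leaders of this population, stayed within the limit with 1 exception. Of 14 tested genes of radial migration, Dab1, the adaptor of reelin signalling, was higher in cKO (0.56, 0.48 to 0.64), with 1949 UMIs in WT and 3725 in cKO, and the median was -0.04. Among cells with at least 5 Neurod1 UMIs its ratio was 0.39, inside the limit. Rnd2, a small GTPase of the multipolar stage, had a ratio of -0.12. Of 17 tested axon guidance genes none was past the limit in either direction. The median was 0.03, and the values ran from -0.46 to 0.46. Epha5, an ephrin receptor, was at 2368 and 2987 CPM, a ratio of 0.34, with 0.48 in Dlx-positive cells. The list summed to 13472 and 14239 CPM in newborn neurons, and to 8456 and 8342 CPM in all other cells of each library.

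Of 8 tested Notch pathway genes and of 9 tested bHLH genes of the Neurod1 pathway none was past the limit, with medians of 0.02 and -0.02. Of 8 tested genes of cell cycle exit Cdkn1c was the 1 past it, with a list median of -0.20, and of 5 tested cell cycle genes none was, with a median of 0.09. Of 5 tested immediate early genes, 3 were lower in cKO, namely Fos (-0.68), Egr1 (-0.63) and Jun (-0.55), with a list median of -0.55. Jun was inside the limit (-0.49) after thinning and without its 10 highest cells. These genes respond to dissociation as well as to activity, and the part of tissue handling in their ratios was not tested.

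RNA of other cell types was low in the newborn neurons but differed between the libraries. The 8 genes of ganglionic eminence and interneuron cells summed to 34.0 CPM in WT and 44.7 in cKO, with Adarb2 the most abundant at 23.5 and 27.4, although 4 of the 8 genes were capped by the rule. In all other cells the sums were 416 and 545 CPM. The 7 Cajal-Retzius genes summed to 66.5 and 27.2 CPM, mostly Reln, of which 1 WT cell held 279 of 482 UMIs. A single WT cell also held 11 of the 13 Trp73 UMIs. The 6 microglia genes gave 4.70 and 7.17 CPM, led by Cx3cr1, and the 5 endothelial genes gave 2.22 and 8.41 CPM, led by Cldn5, with Kdr at 0 in WT. In cKO, 20 of the 28 Cldn5 UMIs were in 1 cell.

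Pericyte genes summed to 3.21 and 1.53 CPM, with Kcnj8 at 0 in cKO, and meningeal genes to 0.741 and 1.62 CPM, with Dcn and Lum at 0 in WT. Globin transcripts, which come from red blood cells, gave 83.9 and 94.3 CPM in newborn neurons and 522 and 708 CPM in other cells, led by Hbb-bs at 37.7 and 40.2 CPM. Their part in the ratios above was not tested. Scrublet marked 5 WT (0.796%) and 16 cKO (1.94%) newborn neurons as doublets, and these were kept.

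The NPC cultures gave the only replicated comparison of the genotypes. The 6 cultures held 16962903 to 22708400 counted reads, and CPM values below are scaled by TMM factors. Of 14432 genes tested with edgeR's quasi-likelihood test, 2843 were higher (19.7%) and 2858 lower (19.8%) in cKO at an adjusted p under 0.05, or 39.5% in either direction, with a median log2 fold change of 0.002. With so large a background, a called gene is a common event. Nothing in the labels says that each culture came from a separate embryo, so the p-values measure the spread between these cultures, which may be partly technical. In bulk samples, fewer cells of a type and less RNA per cell cannot be told apart.

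Y-linked genes were present in WT 1, WT 2 and cKO 1 and near 0 in WT 3, cKO 2 and cKO 3, so sex did not divide the cultures by genotype. Within each genotype the cultures thus did not all come from the same embryo, and the number of embryos is not given. Syncrip was at 77.9, 79.8 and 79.9 CPM in the WT cultures and at 90.3, 88.7 and 81.5 CPM in the cKO cultures. The cKO cultures were all slightly higher, and the change did not pass the test (log2 fold change 0.13, SE 0.075, edgeR adjusted p = 0.1798). Reads over the whole gene do not show whether exons 2 to 4 were deleted.

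A limit of this table bears on Neurod1. All 10755 genes that lie within the span of another gene are listed at 0 in every culture, against 40.4% of the 37685 other genes. Neurod1 (chr2:79452521-79456751, mm10), Sstr2, Tubb3, Sox2 and Dlx1 are among them, so no level of Neurod1 can be given for the cultures. Slc17a6 and Eomes had too few reads to be tested.

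Of the 12 leading genes of newborn neurons, 9 were tested, and 6 fell while none rose in cKO cultures, with a median log2 fold change of -0.70. Sema3c (chr5:17574281-17730268) was at 3.33, 3.95 and 9.19 CPM in WT and 0.638, 1.46 and 1.01 CPM in cKO cultures. The groups did not overlap, and Sema3c fell by 2.43 on the log2 scale (SE 0.405, edgeR adjusted p = 4.06e-04). Ndst3 (chr3:123526166-123690853) was at 1.85, 1.11 and 3.03 CPM in WT and at 0.539, 0.117 and 0.0482 CPM in cKO, with a change of -3.05 (SE 0.586, adjusted p = 0.001071).

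The semaphorin co-receptors fell too. Nrp2 was at 54.1, 60.5 and 74.1 CPM in WT and 18.8, 17.3 and 17.9 CPM in cKO (-1.80, SE 0.119, adjusted p = 1.178e-07). Nrp1 was at 60.3, 53.5 and 64.9 CPM against 37.1, 35.8 and 37.3 (-0.70, SE 0.0973, adjusted p = 8.687e-05), and Ptprk at 21.1, 19.4 and 28.5 CPM against 13.5, 14.8 and 12.97 (-0.74, SE 0.143, adjusted p = 0.001048). In none of these 3 genes did the cultures of the genotypes overlap. Plxna4 was at 27.2, 27.7 and 44.3 CPM against 23.7, 24.1 and 22.7 (-0.50, SE 0.157, adjusted p = 0.02252). Its size rested on WT 3, without which it gave -0.23 (adjusted p = 0.108). Without cKO 1 or cKO 3 the change was about as large, at -0.51 and -0.47, but missed the threshold (adjusted p = 0.0517 and 0.0752).

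Of the 6 markers, 4 were tested and 1 fell. Nrn1 was at 24.3, 26.7 and 21.9 CPM in WT and 14.6, 14.0 and 15.2 CPM in cKO (-0.73, SE 0.112, adjusted p = 0.000193). Unc5d (-0.12, adjusted p = 0.5094), Mfap4 (-0.56, adjusted p = 0.2734) and Cxcl12 (-0.28, adjusted p = 0.5143) did not pass the test. In the embryo, by comparison, the newborn neurons of the libraries had log2 ratios of -0.25 for Sema3c, 0.13 for Ndst3, 0.03 for Nrp2 and -0.01 for Nrp1, none of them past the limit.

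**Figure D5:**
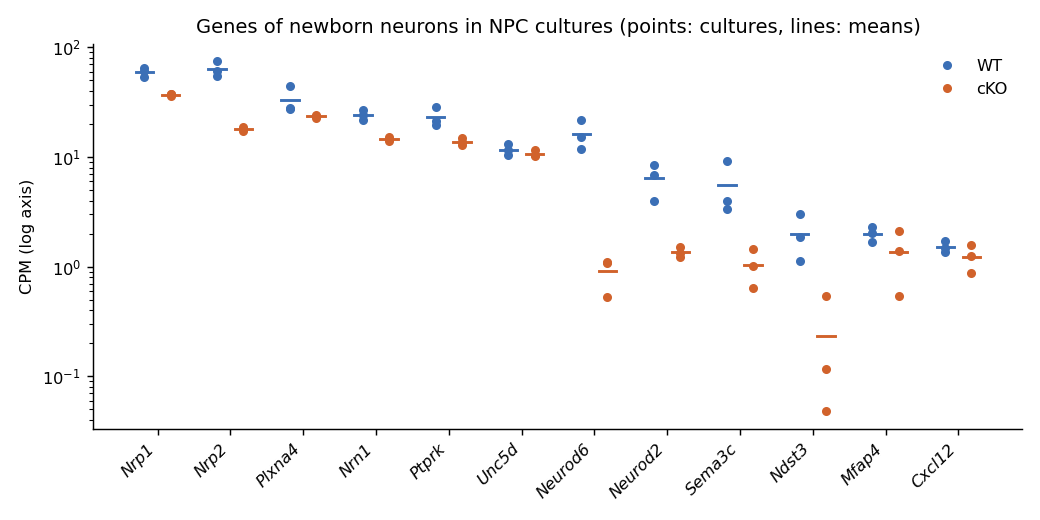
TMM-scaled CPM of genes of newborn neurons in the NPC cultures on a log axis, 1 point per culture (blue, 3 WT; orange, 3 cKO) with lines at the group means. Neurod6, Neurod2, Sema3c, Ndst3, Nrp1, Nrp2, Nrn1 and Ptprk have all WT cultures above all cKO cultures, as does Plxna4, while Unc5d, Mfap4 and Cxcl12 overlap.

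Of 10 tested genes of the postmitotic list, 8 fell and none rose, with a median of -0.74, and Map2 (0.19) and Bhlhe22 (-0.50) did not pass the test. Neurod6 was at 15.2, 11.9 and 21.7 CPM in WT and 1.08, 0.524 and 1.11 CPM in cKO (-4.14, adjusted p = 1.478e-07), and Neurod2 changed by -2.24 (adjusted p = 4.071e-05). Stmn2 was at 15.7, 13.2 and 16.4 CPM in WT and 0.147, 0.117 and 0.193 CPM in cKO, a change of -6.56. Mapt changed by -1.33. Of the cell cycle list, 12 of 14 tested genes rose and 1, Tubb5, fell, with a median of 0.85.

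The bHLH list had 11 tested genes, of which 5 fell and 1, Neurog2, rose (0.70, adjusted p = 0.01874). Neurog2 was no longer called without WT 1 (0.53, adjusted p = 0.0622) or cKO 1 (0.65, adjusted p = 0.0652). Of the intermediate progenitor list 2 of 6 rose and 2 fell, with Insm1 at 42.5, 55.6 and 60.4 CPM in WT and 14.4, 21.5 and 21.3 CPM in cKO (-1.47). Of 14 tested migration genes 8 fell, and of 19 guidance genes 10 fell and 4 rose.

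The 20 genes with the most unequal levels in newborn neurons were then read in the cultures. Of the 10 highest in the cKO library, 8 were tested, and 6 rose and none fell in cKO cultures, against 19.7% of all tested genes that rose. Of the 10 lowest, 9 were tested, and 4 (Cdkn1c, Ezr, Reln and Synpr) fell and 1 rose, against 19.8% of all tested genes that fell. Reln is the gene whose ratio in newborn neurons rested on 1 WT cell. Cdkn1c was at 87.0, 79.6 and 61.2 CPM in WT and 30.6, 34.1 and 34.4 CPM in cKO cultures (-1.20, SE 0.121, adjusted p = 5.027e-06). Ezr fell by 1.28 (adjusted p = 1.293e-07), at 127, 140 and 140 CPM against 49.8, 58.8 and 59.2. Adamts3 rose by 1.52, at 10.1, 10.8 and 12.05 CPM against 33.2, 30.3 and 31.0, and Kitl, the ligand of the Kit receptor, rose by 1.44. Pou3f2 changed by -0.50 (adjusted p = 5.138e-04) and Zbtb20 by -0.56 (adjusted p = 0.001627).

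Ltbp1 was the gene of the 10 lowest that rose, by 0.62. Other genes past the limit in newborn neurons also went the opposite way in the cultures. Zfpm2 (1.06) and Hmgn2 (0.36) rose in cKO cultures and were lower in the cKO newborn neurons. Ncam2 also rose (0.68), but its low ratio in newborn neurons rested on few cells. Grin2b (-2.80, edgeR adjusted p = 3.069e-07) and Ntrk2 (-1.05) fell in cKO cultures and were higher in the cKO newborn neurons. The immediate early genes also differed between the materials, since all 10 rose in the cKO cultures, with a median of 3.48. Fos was at 54.9, 60.0 and 81.1 CPM in WT and 605, 681 and 684 CPM in cKO cultures (3.33, adjusted p = 7.308e-10), and Egr1 changed by 4.18 (adjusted p = 1.091e-12). The cultures and the embryos share no sample, and the direction of each gene is given as measured in its own material.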

How the data were processed

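Gene by barcode counts had been deposited as 10x matrices of UMI counts, made by the authors with Cell Ranger 7.0.0 per the file headers (an annotation version is not given in the sources used here), and a table of whole-number read counts per gene for the NPC cultures, which the authors aligned with HISAT2 to mm10 (the counter is not given in the sources used here). In their processing notes the submitters also name cutadapt, Bowtie, DESeq2 and Seurat. No deposited value column was left unused (0). The labels give about 6000 cells captured per channel, below the 8289 and 9659 barcodes, and the methods state a lower recovery than the labels. The study's later removal of low-quality cells and its cluster names are not used here.

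Members and gene lists were chosen with earlier results of these data known. Named genes are the markers, the genes of the rule, Syncrip, the 12 leading genes, the 10 highest and 10 lowest ratios (without predicted, sex-linked, mitochondrial and globin genes) and the members of 23 lists past a limit or most abundant. Per population and library UMIs were summed. Intervals are exact Poisson for a level, exact conditional for a ratio and Clopper-Pearson for a share. Scrublet (scanpy 1.11.5) was run per library and doublets were kept. Culture counts were tested with edgeR 4.0.16 (robust quasi-likelihood, TMM, filterByExpr, Benjamini-Hochberg over all genes, threshold 0.05, no covariate). By exact permutation, 3 cultures against 3 could not reach that threshold for any gene. Both procedures were tested on simulated data. Alternatives were limits on Neurod1, genes and UMIs, thinning to 5000 UMIs, other scalings, DESeq2 1.42.0, limma 3.58.1, no filter, a replicate block and leaving out each culture, and, added after the data were seen, leaving out the 10 cells with most UMIs of a gene. Python 3.11.15 and R 4.3.3 were used. The LACE-seq samples were not analysed here. A gene of the superficial layer list counts in that list's totals but is not reported here.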

Additional observations from a re-analysis of the deposited data

Results flagged for a closer look

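In 5 named genes the ratio of cKO over WT in newborn neurons was past the limit and the interval of the Dlx-positive cells lay wholly on the other side of 0. Lingo2 had a log2 ratio of 1.49 in newborn neurons and -0.20 (-0.39 to -0.01) in Dlx-positive cells. Galntl6 had 1.65 and -0.44, Grm5 had 0.71 and -0.22, Nedd4 had -0.65 and 0.14, and Synpr had -1.46 and 0.78. With 1 embryo per genotype the difference was not tested in any of them. Of the 5, Galntl6 rested on few cells (110 of its 178 cKO UMIs in 1 cell). Grm5 had UMIs in 27 WT and 57 cKO newborn neurons. Lingo2 was at 0.40 among cells with at least 5 Neurod1 UMIs. Nedd4 had UMIs in 516 WT and 594 cKO newborn neurons, or 58.9% and 44.98% after thinning. In thinned microglia and endothelial cells Nedd4 was in 56.6% (30 of 53) and 64.9% (37 of 57). Whether a Nedd4 UMI there is free RNA or expression was not tested, so no share of expressing newborn neurons is read. Groups of 3 cultures were not searched for outlying samples.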

How the results depend on the processing

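The share of newborn neurons was higher in cKO than in WT under every alternative tried except leaving out the Neurog2 condition. The shares (WT, then cKO) were 12.05% and 12.8% with at least 2 Neurod1 UMIs, 4.51% and 5.15% with at least 5, 5.77% and 6.44% after thinning to 5000 UMIs, 7.65% and 8.62% with at least 200 genes, 9.17% and 10.4% with at least 2000 genes, 9.79% and 11.6% over cells with at most 1 Dlx UMI, and 17.2% and 17.0% with Neurog2 not used. They were 8.52% and 9.59% with at most 5% mitochondrial UMIs, and 8.52% and 9.60% without the cells marked by Scrublet.

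The numbers of genes higher and lower in the cKO newborn neurons were 310 and 202 at a minimum of 100 UMIs, 87 and 66 at 500 UMIs, 83 and 80 after thinning, 90 and 82 with at least 5 Neurod1 UMIs, 26 and 21 at a limit of 1, and 65 and 45 when the whole interval had to pass 0.5. They were 191 and 118 with equal weight per cell, 193 and 104 after centring on the median gene, 185 and 112 without mitochondrial, ribosomal and globin genes, and 177 and 122 without the cells marked by Scrublet. Of the ratios of single named genes under an alternative, 438 stayed within their interval and 63 moved out of it, with no called gene changing sign. Besides those given above for the 10 highest cells left out, Grm5 became 1.41 and Jun -0.49 there. With at least 5 Neurod1 UMIs, Lingo2 was at 0.40, Dab1 at 0.39, Slc17a7 at 0.49 and Pax6 at -0.43, all inside the limit, and Dpp10 was at 0.83 and Zfpm2 at -1.36. After thinning, Slc17a7 was at 0.32, Jun at -0.49 and Reln at -0.77. With equal weight per cell, Reln was at -0.56 and Ncam2 at -0.27. Ncam2 was also inside the limit after centring (-0.50) and without the cells marked by Scrublet (-0.46). The causes were not tested.

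In the cultures, leaving out each in turn gave 2068 to 3070 genes higher and 2040 to 3275 lower. DESeq2 gave 2709 and 2823, limma-voom 2851 and 2788, and no filter on low counts 2792 and 3114. Same-numbered cultures did not deviate together (r = 0.264, -0.0466 and 0.116), so the numbers do not pair the cultures, and the replicate block gave 3189 higher and 3216 lower. Of the calls of single named genes in the cultures, 461 kept their side of the threshold and 7 did not, namely Plxna4 and Neurog2 as given above and Sox5 (0.28, adjusted p = 0.01172) without WT 2 (0.23, adjusted p = 0.0609) or cKO 1 (0.21, adjusted p = 0.0939). With 1 embryo per genotype, depth is not the limit for abundant genes, and for genes under 200 UMIs no ratio was given.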

Other observations

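Further gene lists were read in the cultures, with no test of a list as a whole. Of 16 tested Notch pathway genes, 8 rose and 2 fell in cKO, with a median of 0.33, and the ligands Jag1, Dll1 and Dll3 and the effectors Hes1, Hes5 and Hey1 were among those that rose. Of 9 tested apical progenitor genes, 4 rose (Nes, Hes5, Fabp7 and Hes1) and 3 fell (Pax6, Aldoc and Slc1a3), with a median of 0.23. Of 9 tested genes of deep layers 4 rose and 4 fell, and of 9 of superficial layers none rose and 4 fell. Foxp2 was at 6.21, 4.62 and 5.26 CPM in WT and 12.6, 13.5 and 11.6 CPM in cKO cultures (1.22, edgeR adjusted p = 4.068e-05), while its ratio in newborn neurons was -0.27. Dcc, the netrin receptor of growing axons, was at 116, 106 and 103 CPM in WT and 256, 249 and 235 CPM in cKO cultures (1.18, edgeR adjusted p = 1.178e-07). Of 9 tested genes of the temporal list 2 rose (Hmga2 and Hes1) and 5 fell, while Top2a, outside that list, rose by 1.02 (edgeR adjusted p = 3.259e-05), and of 10 genes of cell cycle exit 2 rose and 5 fell. These counts stand against 39.5% of all tested genes called in either direction.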
